A study of Homo sapiens with 4 samples.

Results

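The SLC2A genes encode the facilitative sugar transporters (GLUT proteins), and the 9 described here were taken by symbol from the 20263 genes of the deposited table. They are SLC2A1, SLC2A3, SLC2A4, SLC2A6, SLC2A8, SLC2A10, SLC2A11, SLC2A12 and SLC2A13. The table lists 14 SLC2A genes in all. Reads of mRNA were counted for each gene in HCT116, a long-used human cell line from an epithelial colorectal tumour. HJJ_3_5 cells had 24 h of culture with HJJ_3_5, which the series title calls a piperine derivative, piperine being the main alkaloid of black pepper. DMSO cells, the reference, had the same 24 h with the solvent. Both groups shared the cell line, DMEM with serum and antibiotics, and held 2 samples each, numbered 1 and 2. The sources used here give no dose for HJJ_3_5. Since the labels do not call the samples separate cultures, the p-values rest on a spread between samples that may be technical.

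Facilitative transporters let sugars cross a membrane down their concentration gradient, without sodium or ATP. Glucose that enters the cell is trapped by hexokinase as glucose 6-phosphate, and fast-growing tumour cells commonly take up much glucose through GLUT1 and GLUT3. The family falls into 3 classes by sequence. Class I holds the classical glucose carriers GLUT1 to GLUT4 and GLUT14. Class II includes the fructose carrier GLUT5, the urate carrier GLUT9 and GLUT11. Class III holds GLUT6, GLUT8, GLUT10, GLUT12 and the proton-coupled myo-inositol carrier HMIT, several of which reside on intracellular membranes. SLC2A1 and SLC2A3 are textbook targets of hypoxia-inducible factor.

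With HJJ_3_5, SLC2A3 fell 5.49-fold, SLC2A6 rose 3.71-fold, and SLC2A4 and SLC2A11 rose 2.17-fold and 2.11-fold. SLC2A1, SLC2A8, SLC2A12 and SLC2A13 did not pass the test, and SLC2A10 was too low to be tested. SLC2A3 made up the largest share of SLC2A transcripts with DMSO, and SLC2A1 with HJJ_3_5. Of the 8 members tested, 3 were called higher and 1 lower (quasi-likelihood test of edgeR, p adjusted by Benjamini-Hochberg over all 14180 genes tested, below 0.05). Of all genes tested, 17.4% were called in either direction, 9.17% higher and 8.27% lower. All 4 called members differed at least 2-fold in this fit, which is 4 of the 8 tested. Of all 14180 genes tested, 3.22% were called higher and 4.14% lower by that much. Among called genes, 456 of the 1300 higher and 587 of the 1173 lower differed at least 2-fold. The median log2 fold change of the 8 was -0.08, against 0.0013 over all genes tested. Members were chosen with earlier results of these data known, so these shares describe the family and do not test it. RNA was extracted from whole cultures, where a change in the cells that make a transcript and a change in transcript per cell cannot be told apart.

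The libraries held between 29211120 and 36455176 counts. Levels are given as CPM (counts divided by the library's size in units of 1e+06 counts, with sizes scaled by the trimmed mean of M-values, TMM), means carry the SD of 2 samples, and log2 fold changes carry their standard error. The epithelial markers summed to between 4937 and 5848 CPM with HJJ_3_5 and between 4338 and 4768 CPM with DMSO. EPCAM, CDH1, KRT8, KRT18, KRT19 and CDX2 were detected well, and VIL1 and LGALS4 were near 0. Of the 6 tested, 2 were called higher, against 9.17% of all genes tested. These were KRT18 (0.83 ± 0.12, adjusted p = 0.0293) and CDX2 (0.83 ± 0.15, adjusted p = 0.0348). KRT8 (0.50), CDH1 (0.06), EPCAM (-0.28) and KRT19 (-0.32) were not called. The 8 markers of other cell types summed to between 36.4 and 41.95 CPM with HJJ_3_5 and between 65.8 and 67.9 CPM with DMSO. Nearly all of that was COL1A1, which was called lower with HJJ_3_5 (-0.82 ± 0.13, adjusted p = 0.0301). The endothelial marker VWF had 53 and 73 counts with HJJ_3_5 and 31 and 21 with DMSO and was not called (0.98 ± 0.30, adjusted p = 0.0826), while PTPRC was at 0 in every library and CD3E, HBB, ALB, PECAM1 and COL3A1 were at or near 0. The part of cells with COL1A1 or VWF in the results was not tested. Fold changes followed the GC content of the transcript across genes (Spearman's rho across genes 0.346), and so did differences between libraries of 1 group, with rho of -0.535 for HJJ_3_5 2 minus 1 and -0.351 for DMSO 2 minus 1. Genes are not independent replicates, and subtracting library 2 from library 1 would turn these signs. Values with this GC and length trend removed are therefore given beside each member. In that fit 3 members were higher and 2 lower, against 10.4% and 13.5% of all genes tested (24% in either direction).

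**Figure D1:**
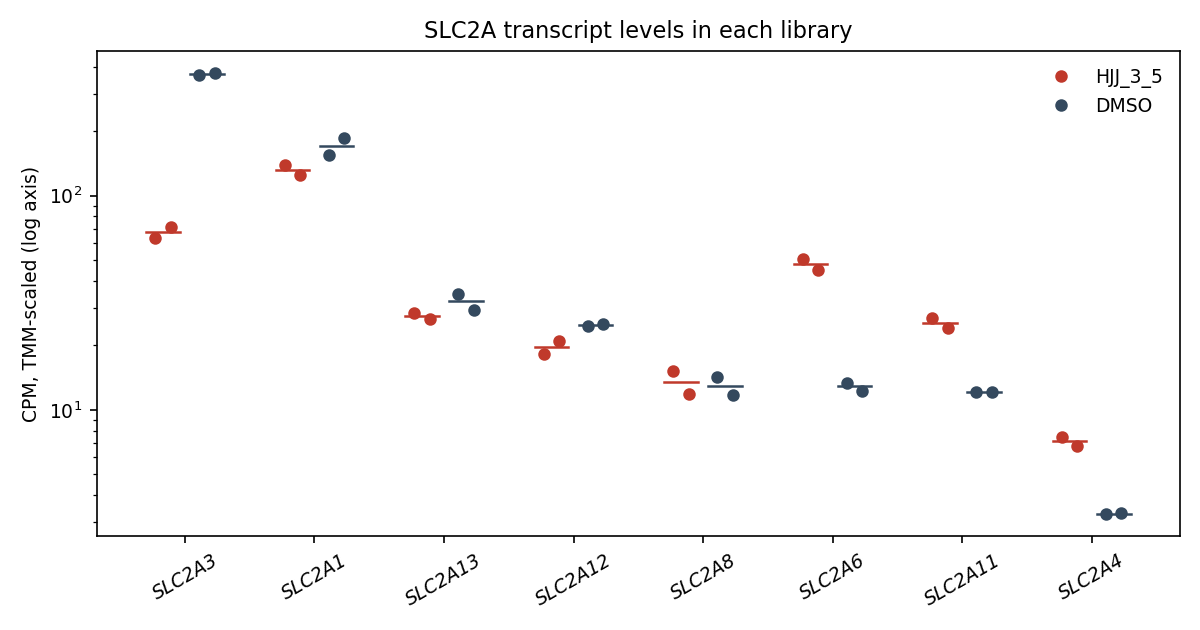
Level of the 8 tested SLC2A genes in each library, in TMM-scaled CPM on a log axis. Each point is 1 library, the short lines are group means (n = 2), and HJJ_3_5 stands left of DMSO. SLC2A3 lay at 63.7 and 71.3 CPM with HJJ_3_5 and at 366 and 375 CPM with DMSO, whereas SLC2A6, SLC2A11 and SLC2A4 lay higher in both HJJ_3_5 libraries.

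SLC2A3 (ENSG00000059804, GRCh38 chromosome 12, 7919230 to 7936275, minus strand, GENCODE 29) encodes GLUT3, a high-affinity glucose transporter best known from neurons and induced by hypoxia in many cell types. It had 63.7 and 71.3 CPM in the HJJ_3_5 libraries, against 366 and 375 CPM in the DMSO libraries. The groups lay far apart, and the libraries of each group lay close together. The log2 fold change was -2.46 ± 0.11 (adjusted p = 0.0244), and 47 of the 14180 genes tested had a lower one. With the GC and length trend removed it was -2.35 (adjusted p = 0.01), while tested genes within 2 percentage points of its GC content of 45.8% had a median of -0.17. The edgeR call was lost without DMSO 2 (-2.44, adjusted p = 0.0523) and without HJJ_3_5 1 (-2.38, adjusted p = 0.0722), with sizes close to that of the full fit. The genes nearest to SLC2A3 in pattern over the 4 libraries, by Euclidean distance of centred log2 CPM among the 10663 tested genes at an average log2 CPM of 3 or more, were RIOK3 (0.276), the hypoxia-inducible lipid droplet gene HILPDA (0.282) and the TNF-family ligand EDA (0.311). With 4 libraries in 2 groups, such nearness is largely a like fold change. Shared regulation was not tested.

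SLC2A3 has a close copy on the same chromosome, SLC2A14 (ENSG00000173262, chromosome 12, 7812512 to 7891148, minus strand), which encodes GLUT14. Over 1488 aligned coding bases 1440 were identical (96.8%). The coding stretch of 90 bases in which they differ most, within an exon of each gene, is shown as an example of the differences by which reads can be told apart, and it holds 8 of them. It lies at chr12:7930542-7930631 for SLC2A3 and chr12:7828766-7828855 for SLC2A14 (GRCh38, minus strand, GENCODE 29 transcripts), and capitals mark the bases that differ.
SLC2A3: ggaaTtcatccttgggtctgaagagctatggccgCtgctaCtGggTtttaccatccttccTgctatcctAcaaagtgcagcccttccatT
SLC2A14: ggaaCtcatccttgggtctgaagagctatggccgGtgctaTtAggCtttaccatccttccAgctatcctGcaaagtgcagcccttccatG
Of all windows of 50 bases in the longest SLC2A3 transcript, 23.0% were found unchanged in an SLC2A14 transcript, and of windows of 100 bases 7.05%. The sources used here do not say how the counting treated such reads. SLC2A14 had 16 and 19 counts in the HJJ_3_5 libraries, against 45 and 58 in the DMSO libraries, and was called lower too (-1.85 ± 0.33, adjusted p = 0.0348), a call lost in each fit without 1 library (adjusted p from 0.0744 to 0.152). SLC2A3 held 99.2% and 99.3% of the counts of the pair with HJJ_3_5 and 99.6% and 99.4% with DMSO. The counts of both genes moved together, and with so few SLC2A14 counts its own change cannot be told apart from reads of SLC2A3. With the counts of the pair summed, the log2 fold change was -2.45 (adjusted p = 0.0244).

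SLC2A1 (ENSG00000117394, chromosome 1, 42925375 to 42959176, minus strand) encodes GLUT1, the carrier of basal glucose uptake in most dividing cells. It had 139 and 125 CPM in the HJJ_3_5 libraries, against 155 and 185 CPM in the DMSO libraries. The groups did not overlap, but the gap between them was smaller than the difference between the DMSO libraries. The log2 fold change was -0.37 ± 0.13 (adjusted p = 0.117, unadjusted p = 0.0439), so SLC2A1 did not pass the test. It did in the fit without the GC and length trend (-0.59, adjusted p = 0.0403), where tested genes of like GC content (54.8%) had a median of 0.13 before removal. Scaled by library totals, its log2 fold change was -0.18 (adjusted p = 0.332). The ratio of SLC2A3 to SLC2A1, both in CPM per kilobase of transcript, was 0.430 and 0.537 in the HJJ_3_5 libraries, against 2.22 and 1.90 in the DMSO libraries. This ratio does not depend on the scaling between libraries, and its groups lay apart (exact permutation test, two-sided, p = 0.33, the smallest p that 2 against 2 samples allow).

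SLC2A4 (ENSG00000181856, chromosome 17, 7281667 to 7288257, plus strand) encodes GLUT4, the insulin-responsive transporter of muscle and fat, and was the lowest of the tested members. It had 7.497 and 6.770 CPM in the HJJ_3_5 libraries, from 232 and 265 counts, against 3.26 and 3.30 CPM in the DMSO libraries, from 96 and 91 counts. Both HJJ_3_5 libraries lay above both DMSO libraries, which were nearly equal. The log2 fold change was 1.12 ± 0.18 (adjusted p = 0.0317), and without the GC and length trend it was 0.85 (adjusted p = 0.0341). Without DMSO 1, DMSO 2 or HJJ_3_5 1 it was 1.11, 1.13 and 1.04, with adjusted p of 0.109, 0.142 and 0.0876 in edgeR. Exons of SLC2A4 share 117 bases (2.89%) with an antisense gene and 6 bases with YBX2, both on the other strand. Class I thus held the member that fell and a member that rose.

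SLC2A6 (ENSG00000160326, chromosome 9, 133471095 to 133479137, minus strand) encodes GLUT6, a class III transporter found on lysosomal membranes. It had 50.4 and 45.1 CPM in the HJJ_3_5 libraries, against 13.4 and 12.3 CPM in the DMSO libraries. The groups lay well apart, with a log2 fold change of 1.89 ± 0.13 (adjusted p = 0.0244), and 140 of the 14180 genes tested had a higher one. Its transcript has the highest GC content of the tested members (63.7%), and tested genes of like GC had a median log2 fold change of 0.25. With the trend removed its own was 1.52 (adjusted p = 0.0129). The edgeR call was lost without DMSO 1 (1.95, adjusted p = 0.0525), DMSO 2 (1.83, adjusted p = 0.0794) or HJJ_3_5 1 (1.81, adjusted p = 0.0722). Nearest in pattern were FNDC10 (0.073), the mitochondrial deformylase PDF (0.0786) and the proline synthesis gene PYCR3 (0.124).

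SLC2A11 (ENSG00000133460, chromosome 22, 23856703 to 23886309, plus strand) encodes GLUT11, a class II carrier of glucose and fructose. It had 26.9 and 24.2 CPM in the HJJ_3_5 libraries, against 12.08 and 12.10 CPM in the DMSO libraries. The DMSO libraries were almost equal and lay below both HJJ_3_5 libraries. The log2 fold change was 1.08 ± 0.13 (adjusted p = 0.0273), and 0.83 with the trend removed (adjusted p = 0.0184). Without DMSO 1, DMSO 2 or HJJ_3_5 1 it was 1.07, 1.07 and 1.0, with adjusted p of 0.0863, 0.115 and 0.0763 in edgeR. Exons of SLC2A11 share 431 bases (4.85%) with the protein-coding gene ENSG00000251357 on the same strand, which had a log2 fold change of -0.09 ± 0.29 (adjusted p = 0.846). A further 1040 bases (11.7%) and 329 bases (3.70%) are shared with antisense genes, whose reads cannot be told apart from those of SLC2A11 if strand was not used in counting. SLC2A4 and SLC2A11 were near each other in pattern, with log2 fold changes of 1.12 and 1.08. SLC2A11 was the second nearest gene to SLC2A4 at a distance of 0.036, after SECTM1 (0.0199) and before the RNA helicase DHX37 (0.0404), and the nearest genes to SLC2A11 were DHX37 (0.0358), SECTM1 (0.0442) and PRAG1 (0.0456).

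**Figure D2:**
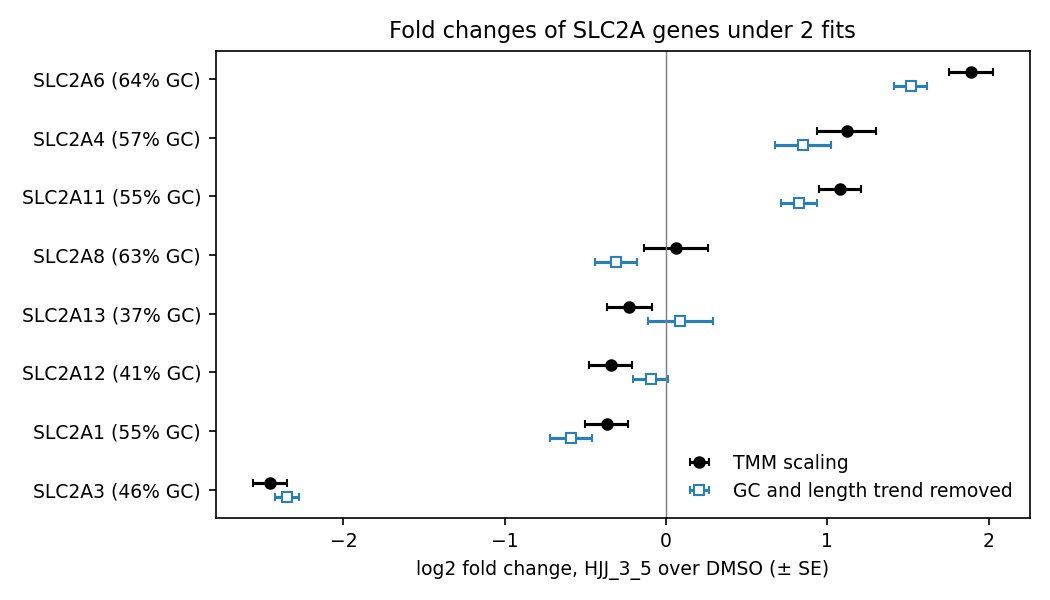
Log2 fold change of HJJ_3_5 over DMSO for the 8 tested SLC2A genes, with standard errors, under TMM scaling (filled circles) and with the GC and length trend removed (open squares); the GC content of the transcript stands beside each name. SLC2A6, SLC2A4, SLC2A11 and SLC2A3 lay on the same side of 0 in both fits, whereas SLC2A8 and SLC2A13 changed side.

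Among the other class III genes, SLC2A8 (ENSG00000136856, chromosome 9, 127397138 to 127408424, plus strand) encodes GLUT8, a transporter held on intracellular membranes. It had 15.3 and 11.9 CPM in the HJJ_3_5 libraries, against 14.2 and 11.7 CPM in the DMSO libraries. The groups overlapped, and the fold change (0.06 ± 0.20, adjusted p = 0.839) was smaller than the difference between libraries of either group (log2 -0.36 for HJJ_3_5 2 minus 1 and -0.28 for DMSO 2 minus 1). Its GC content, 62.6%, was close to that of SLC2A6. With the trend removed the fold change was -0.31 (adjusted p = 0.143).

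SLC2A12 (ENSG00000146411, chromosome 6, 133988697 to 134052636, minus strand) encodes GLUT12, a glucose transporter expressed in several tumour types. It had 18.2 and 21.05 CPM in the HJJ_3_5 libraries, against 24.7 and 25.1 CPM in the DMSO libraries. The groups did not overlap, but the difference did not pass the test (-0.34 ± 0.13, adjusted p = 0.136) and was -0.09 with the trend removed (adjusted p = 0.553). Of its exon bases, 1736 (38.9%) are shared with TBPL1 on the other strand, and TBPL1 had a log2 fold change of 0.05 ± 0.25 (adjusted p = 0.905).

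SLC2A13 (ENSG00000151229, chromosome 12, 39755021 to 40106089, minus strand) encodes HMIT, which carries myo-inositol with protons rather than glucose. It had 28.4 and 26.5 CPM in the HJJ_3_5 libraries, against 34.9 and 29.4 CPM in the DMSO libraries, and the groups lay just apart. The log2 fold change was -0.23 ± 0.14 (adjusted p = 0.292). It was 0.09 with the trend removed (adjusted p = 0.767), and its transcript has the lowest GC content of the tested members (36.6%). Over the 8 tested members the groups did not overlap for 7, with 3 higher and 4 lower with HJJ_3_5, against 69% of all genes tested, 35.1% higher and 33.9% lower.

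SLC2A10 (ENSG00000197496, chromosome 20, 46709487 to 46736347, plus strand) encodes GLUT10, loss of which causes arterial tortuosity syndrome. It had 6 and 4 counts in the HJJ_3_5 libraries and 0 in both DMSO libraries, which left it under the filter on low counts. Its level over the HJJ_3_5 group was 0.143 CPM (exact Poisson 95% interval 0.0684 to 0.262, counting error only), and the lower end of that interval lies above the 0.0526 CPM that 3 counts over the DMSO group would give. The point value was 2.71-fold that limit. This ratio is an estimate and not a minimum, and it leaves out the counting error of the HJJ_3_5 libraries. No test was made, and the gene was near the detection limit in both groups.

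The other SLC2A genes were at trace levels. SLC2A5, the fructose carrier, had 10 and 11 counts in the HJJ_3_5 libraries, against 4 and 2 in the DMSO libraries, and SLC2A9, the urate carrier, had 27 and 23, against 21 and 3. SLC2A9 was tested and did not pass (0.80 ± 0.81, adjusted p = 0.503), with DMSO libraries far apart. SLC2A7 had 3 and 0 counts with HJJ_3_5 and 0 and 0 with DMSO. SLC2A2, the transporter of liver and pancreatic beta cells, had no count in any library.

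Levels of different genes can be compared only per length of transcript, here as CPM per kilobase of the longest protein-coding transcript in GENCODE 29. In the HJJ_3_5 libraries the order of levels was SLC2A1 (35.9 ± 2.8 CPM per kilobase), SLC2A6 (18.9 ± 1.5), SLC2A3 (17.2 ± 1.4), SLC2A11 (7.82 ± 0.58), SLC2A8 (6.24 ± 1.11), SLC2A12 (4.39 ± 0.45), SLC2A13 (3.92 ± 0.19) and SLC2A4 (2.08 ± 0.15). SLC2A6 and SLC2A3 overlapped between libraries there. SLC2A12 (4.072 and 4.711) and SLC2A13 (4.052 and 3.79) were nearly equal in HJJ_3_5 1, so the order of that pair was not resolved. In the DMSO libraries the order was SLC2A3 (94.7 ± 1.6), SLC2A1 (46.3 ± 6.0), SLC2A8 (5.97 ± 0.82), SLC2A12 (5.57 ± 0.06), SLC2A6 (5.09 ± 0.31), SLC2A13 (4.59 ± 0.55), SLC2A11 (3.704 ± 0.003) and SLC2A4 (0.956 ± 0.008). The order of SLC2A8 and SLC2A12 was not resolved there, nor that of SLC2A6 and SLC2A13, since the libraries of each pair overlapped. SLC2A8 and SLC2A12 lay above SLC2A6 and SLC2A13, but by little (SLC2A8 at 5.385 in DMSO 2, SLC2A6 at 5.303 in DMSO 1).

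SLC2A3 supplied 16.2% and 19.4% of all SLC2A transcripts in the HJJ_3_5 libraries, against 57.2% and 55.8% in the DMSO libraries, a difference of -38.7 percentage points. SLC2A1 supplied 37.7% and 36.2% with HJJ_3_5, against 25.8% and 29.4% with DMSO. SLC2A6 supplied 19.9% and 19.0% with HJJ_3_5, against 3.25% and 2.84% with DMSO. The groups lay apart for each of these shares, which do not depend on the scaling between libraries. For the SLC2A3 share the exact permutation p (two-sided) was 0.33, the smallest possible with 2 against 2. Each share is a part of a fixed whole, so a share can rise where the level does not. The mean level of SLC2A1 was 35.9 CPM per kilobase with HJJ_3_5, against 46.3 with DMSO. SLC2A12 and SLC2A13 also had larger mean shares with HJJ_3_5 (4.54% and 4.04%, against 3.33% and 2.75%). Their mean levels were lower (4.39 and 3.92 CPM per kilobase, against 5.57 and 4.59). The shares of SLC2A4, SLC2A8 and SLC2A11 were larger with HJJ_3_5 too.

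The summed level of all 14 SLC2A genes was 100.4 and 93.8 CPM per kilobase in the HJJ_3_5 libraries, against 163 and 172 in the DMSO libraries, a ratio of means of 0.580. Without SLC2A3 the sum was 84.1 and 75.6 with HJJ_3_5, against 69.9 and 75.8 with DMSO, and the groups overlapped. That last statement depends on the scaling: with library totals the sum without SLC2A3 was 89.1 and 81.2 with HJJ_3_5, against 66.2 and 70.35 with DMSO, which did not overlap. The sum of all 14 was lower with HJJ_3_5 under library totals as well, with a ratio of means of 0.660. Transcript levels alone say nothing of transporter protein at the cell surface or of sugar uptake, which were not measured.

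**Figure D3:**
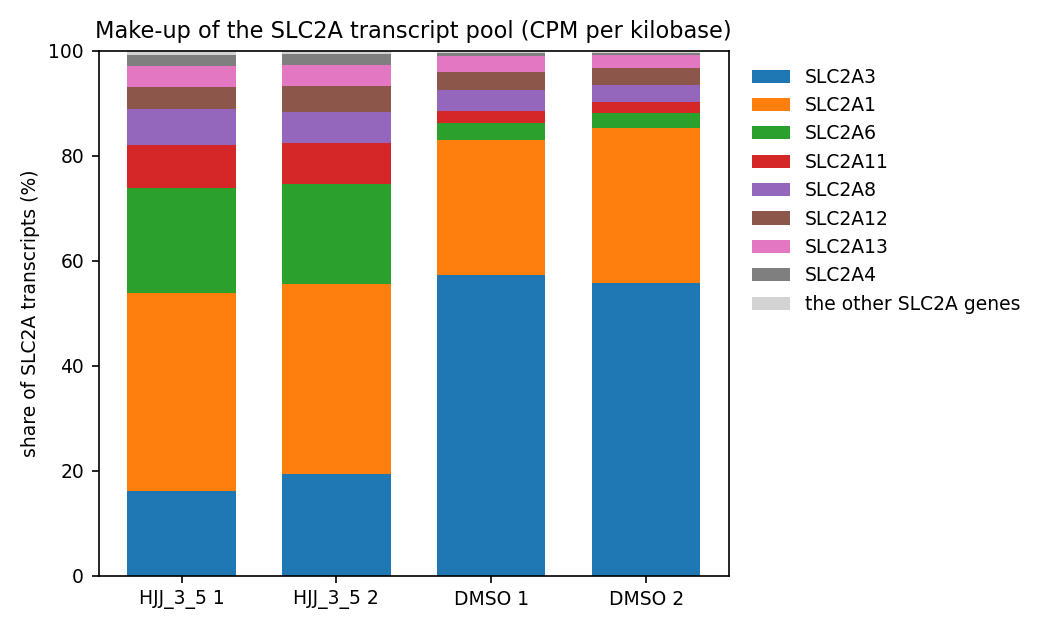
Share of each SLC2A gene in the summed SLC2A transcript level of a library, in percent of CPM per kilobase; each bar is 1 library and starts at 0, with HJJ_3_5 left of DMSO. SLC2A3 took 16.2% and 19.4% of the pool with HJJ_3_5, against 57.2% and 55.8% with DMSO. The segments of SLC2A1, SLC2A6, SLC2A11, SLC2A8, SLC2A12, SLC2A13 and SLC2A4 were taller with HJJ_3_5. Segments are parts of a fixed whole, so a taller segment need not be a higher level.

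Promoter windows of RefSeq (GRCh38.p14) are shown for SLC2A6 and SLC2A11, which rose, and for SLC2A13 and SLC2A1, which did not pass the test, as examples of windows with and without the core of the hypoxia response element. RefSeq windows were matched by symbol for 7 of the 9 members; SLC2A3 and SLC2A4 were the others. Each line gives the 250 bases before the start site, 5′ to 3′ on the gene's strand, and capitals mark that core, ACGTG or GCGTG, on either strand. The windows are chr9:133479100-133479349 (minus) for SLC2A6, chr22:23856684-23856933 (plus, the most upstream of 3 start sites) for SLC2A11, chr12:40106082-40106331 (minus) for SLC2A13 and chr1:42958869-42959118 (minus) for SLC2A1.
SLC2A6: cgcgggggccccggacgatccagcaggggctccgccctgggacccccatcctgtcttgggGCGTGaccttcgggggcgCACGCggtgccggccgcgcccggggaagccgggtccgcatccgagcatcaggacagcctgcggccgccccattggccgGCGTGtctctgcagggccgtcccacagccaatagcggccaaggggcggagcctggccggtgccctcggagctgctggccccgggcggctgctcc
SLC2A11: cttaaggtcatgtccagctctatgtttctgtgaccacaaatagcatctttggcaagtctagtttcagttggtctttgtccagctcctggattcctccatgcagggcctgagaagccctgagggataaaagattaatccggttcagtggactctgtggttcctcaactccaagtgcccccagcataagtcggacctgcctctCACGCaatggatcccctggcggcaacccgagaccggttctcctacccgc
SLC2A13: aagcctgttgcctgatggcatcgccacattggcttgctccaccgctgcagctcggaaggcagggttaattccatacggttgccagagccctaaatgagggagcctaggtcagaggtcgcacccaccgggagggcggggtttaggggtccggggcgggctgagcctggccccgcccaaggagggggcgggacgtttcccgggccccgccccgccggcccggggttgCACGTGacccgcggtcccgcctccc
SLC2A1: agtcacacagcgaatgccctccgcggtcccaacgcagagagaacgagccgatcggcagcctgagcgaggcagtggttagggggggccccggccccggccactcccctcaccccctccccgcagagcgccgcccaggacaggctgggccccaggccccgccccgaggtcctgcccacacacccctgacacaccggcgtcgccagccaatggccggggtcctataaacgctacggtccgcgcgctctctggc
The core occurred 3 times in the SLC2A6 window, 1 time in this SLC2A11 window, 2 times in the SLC2A13 window, on opposite strands of 1 palindromic site, and 0 times in the SLC2A1 window. Over the 9 windows of members, 6 held it, 3 of them of SLC2A11, against 43.2% of 35116 RefSeq windows of the same length. By gene these were SLC2A6, SLC2A10, SLC2A11 and SLC2A13, so that members which rose and a member which did not pass the test both held it. ACGTG alone is in 18.5% of all windows and GCGTG alone in 32.2%, and ACGTG overlaps the E-box CACGTG, which is in 6.3%. The SLC2A6, SLC2A13 and SLC2A1 windows had GC contents of 76.8%, 70.0% and 72.4%, above the median of 58.0% over all windows, and the SLC2A11 window had 53.2%. A match is a stretch of letters and not a binding site, and enhancers farther away are outside these windows.

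Next to uptake stands the phosphorylation that keeps hexoses in the cell. Of the 6 hexose kinase genes that passed the filter on low counts, 1 was called higher and 2 lower, against 9.17% and 8.27% of all genes tested. Their median log2 fold change was 0.28, against 0.0013 over all genes tested. HK2, the inducible hexokinase of tumours and muscle, had 57.3 and 54.0 CPM in the HJJ_3_5 libraries, against 260 and 218 CPM in the DMSO libraries (-2.10 ± 0.13, adjusted p = 0.0244). HK1, the widely expressed hexokinase, had 189 and 175 CPM with HJJ_3_5, against 248 and 255 CPM with DMSO (-0.47 ± 0.09, adjusted p = 0.0407). The HK1 call was lost with library totals (-0.28, adjusted p = 0.0896) and in each fit without 1 library (adjusted p from 0.0693 to 0.219), and that of HK2 without DMSO 2 (-2.23, adjusted p = 0.0593) and without HJJ_3_5 1 (-2.15, adjusted p = 0.0722).

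The gene called higher was ADPGK, an ADP-dependent sugar kinase of the endoplasmic reticulum, with 39.6 and 38.1 CPM in the HJJ_3_5 libraries, against 27.1 and 23.2 CPM in the DMSO libraries (0.63 ± 0.13, adjusted p = 0.0446, and from 0.0652 to 0.234 in fits without 1 library). The other 3 tested kinase genes, HKDC1, KHK and GALK1, did not pass the test.

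Carriers of sugar outside the family did not pass the test of edgeR. Of 14 such genes (sodium-coupled SLC5A members, SLC45A members, SLC50A1, MFSD4A, MFSD4B and the glucose 6-phosphate carrier SLC37A4), 13 were tested. In edgeR 0 were called higher or lower, against 17.4% of all genes tested. Their median log2 fold change was 0.13. Before adjustment, p was below 0.05 for 4 of the 13, against 39.3% of all genes, with 3 higher and 1 lower, which were MFSD4A (1.77), SLC37A4 (0.44) and SLC45A4 (0.39) against the inositol carrier SLC5A3 (-0.65), all named after their values were seen. DESeq2 called 2 of them higher (MFSD4A and SLC37A4) and SLC5A3 lower, limma-voom called 0, and edgeR with library totals called MFSD4A, SLC37A4 and SLC45A4 higher, against 28.2%, 17.6% and 24.2% of all genes called by these fits. SLC5A1, the intestinal sodium-glucose transporter SGLT1, had 0.388 and 0.307 CPM with HJJ_3_5, against 0.339 and 0.616 CPM with DMSO.

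Genes of transporter trafficking and surface level were mostly not called. Of 26 genes, 25 were tested, with 0 called higher and 1 lower in edgeR, against 17.4% of all genes tested called in either direction. Their median log2 fold change was -0.11. At an unadjusted p below 0.05 there were 2 higher and 6 lower, against 39.3% of all genes tested. DESeq2 called 2 higher (RALA and EXOC7) and 5 lower (ARRDC4, VPS35, TBC1D1, RAB13 and LNPEP), against 28.2% of all genes, and limma-voom called RALA higher and ARRDC4 lower, against 17.6%. With library totals edgeR called RALA, EXOC7 and MYO1C higher and ARRDC4 lower, against 24.2% of all genes. With the GC and length trend removed it called RALA higher and ARRDC4 lower, against 24%. RALA, EXOC7, MYO1C, VPS35, TBC1D1, RAB13 and LNPEP were named after their values were seen. The gene called lower in edgeR was ARRDC4, an alpha-arrestin that promotes removal of GLUT1 from the cell surface and is itself induced by glucose. It had 29.4 and 35.0 CPM in the HJJ_3_5 libraries, against 390 and 411 CPM in the DMSO libraries (-3.64 ± 0.13, adjusted p = 0.0244). That call was lost without HJJ_3_5 1 (-3.52, adjusted p = 0.0722). TXNIP, its close relative with the same role, is listed at 0 in all 4 libraries of a table whose annotation and counting are unknown, which does not show that the gene was silent.

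Of 12 transcriptional regulators of SLC2A genes, all tested, 1 was called higher and 1 lower, with a median log2 fold change of -0.21. These 2 of 12 stand against 17.4% of all genes tested, and the 3 higher and 4 lower that DESeq2 called against 28.2%. EPAS1, which encodes HIF2-alpha, had 119.1 CPM in each of the HJJ_3_5 libraries, against 182 and 187 CPM in the DMSO libraries (-0.63 ± 0.09, adjusted p = 0.0293), and its call was lost without DMSO 1, DMSO 2 or HJJ_3_5 1 (adjusted p = 0.109, 0.148 and 0.0803). NFKB1, a subunit of NF-kB, had 52.1 and 52.0 CPM with HJJ_3_5, against 34.3 and 36.9 CPM with DMSO (0.55 ± 0.11, adjusted p = 0.0417, and from 0.065 to 0.217 in fits without 1 library). HIF1A, named after its values were seen, had 51.6 and 84.4 CPM with HJJ_3_5, against 120 and 192 CPM with DMSO. Its groups did not overlap, its libraries spread widely in each group, and it did not pass the test (-1.20 ± 0.34, adjusted p = 0.0716). It was called lower by DESeq2 and in the edgeR fit without the GC and length trend (-1.11, adjusted p = 0.0451). MLXIP, which encodes the glucose sensor MondoA and was also named after its values were seen, was not called (0.41 ± 0.11, adjusted p = 0.0702), but was called higher by DESeq2, with library totals and without the trend (0.43, adjusted p = 0.0279).

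**Figure D4:**
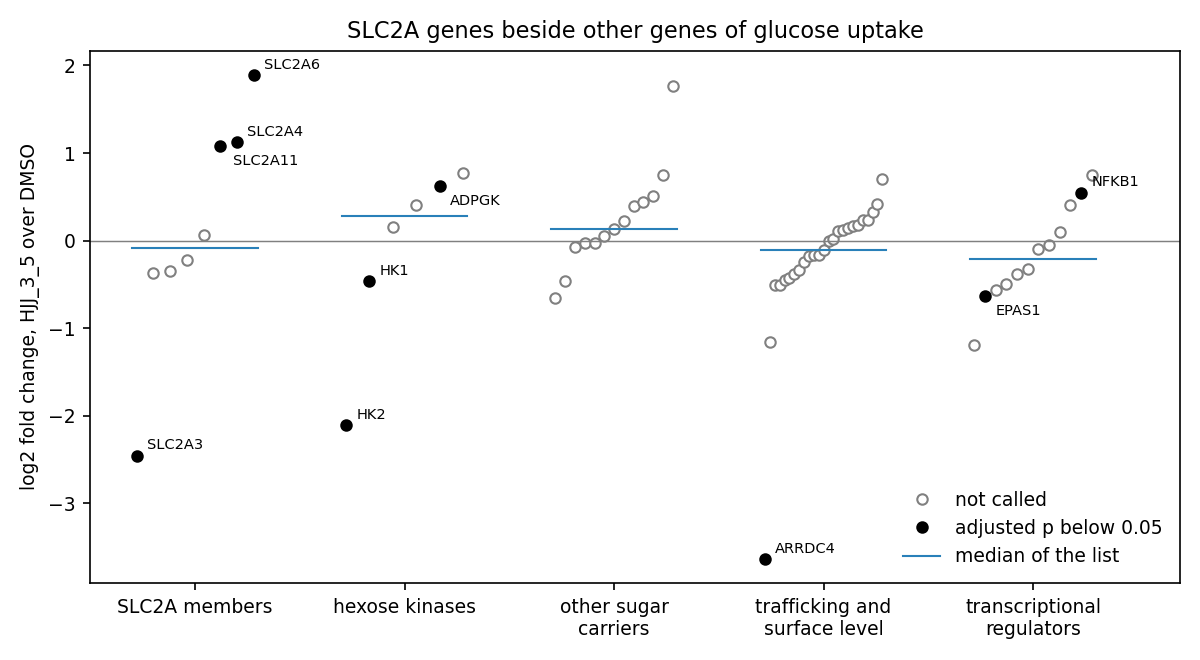
Log2 fold change of HJJ_3_5 over DMSO for the tested SLC2A members and for 4 lists of genes of glucose uptake; filled points passed the test (edgeR, adjusted p below 0.05) and carry their names, open points did not, and blue lines are list medians. SLC2A3, HK2 and ARRDC4 lie below -2, and SLC2A6 is the highest of the called genes shown, at 1.89.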

How the data were processed

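Per the labels' protocols, mRNA libraries of HCT116 cells were prepared with an Illumina kit. The table the authors deposited holds unnormalized counts of reads for each gene as whole numbers, with a column for every sample. Every row is a human Ensembl identifier, yet the builds in the submitters' processing notes, GRCm38 and mm10, are of mouse, and the build actually used is unknown. The sources used here do not give the aligner, the counter, the annotation or the use of strand. Symbols came from a table of gene names (20148 of 20263 identifiers matched), and positions, transcript length and GC content from GENCODE 29 (GRCh38), matched by identifier.

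Genes were kept with filterByExpr (minimum count 10, minimum total 15), libraries were scaled by TMM, and the quasi-likelihood test of edgeR 4.0.16 (R 4.3.3, two-sided) compared the groups with no other term and 2 residual degrees of freedom, with Benjamini-Hochberg adjustment over 14180 genes. The standard error is the size of the log2 fold change over the square root of F. The trend was a natural spline per library in GC and in log length, with 4 degrees of freedom each, fitted on genes with average log2 CPM of at least 3 and entered as an offset. DESeq2 1.42.0 and limma-voom (3.58.1) were alternatives, and those of list genes were added after seeing the data. The scripts were tested on simulated data.

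The rule for named genes took all SLC2A genes, called genes of each list with HK1 and HK2, and the 3 genes nearest in pattern to each called member. TXNIP, SLC5A1, HKDC1, KHK, GALK1, the markers and the genes said to be named after their values were seen fall outside it. Members and lists were chosen with earlier results of these data known. Replicate libraries differed by more than sampling noise, with a chi-square per degree of freedom of 49.9 for HJJ_3_5 and 37.2 for DMSO.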

Additional observations from a re-analysis of the deposited data

How the results depend on the processing

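The 3 members called higher and the 1 called lower kept their direction and their call with DESeq2, limma-voom, library totals, factors by relative log expression, no filter on low counts, a minimum of 10 counts per library, a replicate block, trend removal with and without that block, and SLC2A3 and SLC2A14 summed. The lower members were 2 with the trend removed, with or without the block, SLC2A1 being the added one. In both of these fits SLC2A4 and SLC2A11 stayed below 2-fold, with log2 fold changes of 0.85 and 0.83. With an adjusted p below 0.01, 0 members and 0 genes were called higher or lower in edgeR with TMM scaling, whose lowest adjusted p was 0.0244, although 2813 genes were higher and 2765 lower at an unadjusted p below 0.05. At 0.01 limma-voom called 0 genes too, and DESeq2 called 1177 higher and 1461 lower, with 3 members higher and 1 lower. In edgeR the lowest adjusted p was 0.00431 with the trend removed, where 1 gene (ARRDC4) passed 0.01, and 0.00998 with the replicate block as well, reached by SLC2A3 and SLC2A6 among others. Fits without 1 library called between 0 and 3 members higher, between 0 and 1 lower, between 0 and 976 genes higher and between 0 and 1716 genes lower; such a fit leaves 1 sample in a group, assumed to vary like the other group. At an unadjusted p below 0.05 the fit without HJJ_3_5 1, which called 0 genes, had 2054 higher and 2249 lower, and the fit without DMSO 2 had 1628 higher and 1664 lower.

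Over all genes, 1300 were higher and 1173 lower. The counts were 2614 higher and 818 lower with library totals, which moved the median log2 fold change of all genes to 0.19, 2161 lower with DESeq2, 1921 lower with the trend removed, and 2044 higher and 2900 lower with the trend removed and the replicate block. The replicate block alone gave 2077 higher and 2540 lower. Same-numbered libraries deviated together with a correlation of 0.167 across genes, but 2 pairs that share a number and no stated batch do not establish pairing.

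SLC2A8 turned negative with the trend removed (-0.31, and -0.31 with the replicate block), without DMSO 2 (-0.07) and without HJJ_3_5 1 (-0.13, the lowest of 4 such fits, which reached 0.23), and SLC2A13 turned positive with the trend removed (0.088, and 0.086 with the replicate block); the cause was not tested. The difference in the SLC2A3 share was -34.4 percentage points with mean transcript lengths and between -40.3 and -37.1 without 1 library. Counts of SLC2A10, SLC2A5, SLC2A7 and SLC2A14 are too low for firm fold changes at this depth.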
